A study of Mus musculus with 2 samples.

Results

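The regions described here are the Smad4 ChIP-seq peaks of mouse embryonic forelimb that lay in 3 large arrays of olfactory receptor genes. Members were chosen by position alone. They are all peaks whose midpoint fell, on mm9 coordinates counted from 1, within chromosome 2 from 85000001 to 90000000, chromosome 7 from 109300001 to 115500000, or chromosome 9 from 37500001 to 40000000. This gave 592 of the 90984 peaks in the deposited list, with 200 on chromosome 2, 287 on chromosome 7 and 105 on chromosome 9. The arrays span 13.7 Mb together, and the rest of the same chromosomes, 435 Mb with 14860 peaks, was the comparison. The study sought genes directly bound by Smad4 in the maturation of cartilage. It used forelimbs of C57BL/6 embryos, with embryonic days 12.5 and 13.5 given together for each library, and it had 1 Smad4 ChIP library and 1 library of input DNA, so both ages are mixed in the list and no value below has a replicate check. Both libraries came from whole forelimb, which holds many cell types, and depth is unknown because the list gives only the tags inside peaks.

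Olfactory receptors are G-protein-coupled receptors that bind odorants. They form the largest gene family in the mouse, sit in tandem arrays, and each olfactory sensory neuron is known to transcribe a single allele of a single receptor gene while the others stay closed. Outside the olfactory epithelium and a few other tissues the arrays are regarded as silent, which is why they can serve as a control for loci without a role in the limb. Their silence was not measured here, because the list holds no expression values. In BMP and TGF-β signalling, receptor-activated Smads join Smad4 and enter the nucleus with it. Its DNA-binding domain is known to recognise the short Smad box CAGAC, the palindrome GTCTAGAC and GC-rich boxes such as GGCGCC.

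The peak list pairs no gene with a peak, and mm9 sequence and annotation were not used here. The gene content of such arrays was therefore taken from RefSeq's GRCm38.p6 gene order, which is another assembly, and no gene was placed against a peak. Whether the 3 mm9 windows coincide with the gene runs described next was not checked, so these are values of the runs and not of the windows that hold the peaks. On each chromosome the longest run of protein-coding Olfr genes, allowing up to 30 other protein-coding genes between neighbours, held 222 Olfr genes on chromosome 2 (Olfr987 to Olfr1274), 193 on chromosome 7 (Olfr543 to Olfr519) and 95 on chromosome 9 (Olfr160 to Olfr986). The 3 chromosomes held 287, 239 and 130 protein-coding Olfr genes in all, so some lie outside these runs. Neither the rest of the chromosomes nor the other promoter windows below were cleared of them. Other protein-coding genes numbered 3, 55 and 3 within these runs. The run on chromosome 7 is therefore less pure. Its longest interruption holds 21 other genes, among them Taf10, a subunit of the general transcription factor TFIID, Ilk, which encodes integrin-linked kinase, and Dchs1, a protocadherin of planar cell polarity. The β-globin genes also lie inside this run.

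RefSeq promoter windows (250 bases before to 50 after the gene start, GRCm38.p6) were found for 435 of the 510 Olfr genes of these runs, 437 windows in all. These windows were poor in CpG and in GC-rich Smad boxes. In each Olfr window printed below, the 50 bases after the gene start begin with ATG, the start codon. The gene start used for these genes therefore appears to be the start of the coding sequence, and their promoters may lie elsewhere. Whether this holds for the other Olfr windows was not checked, so the comparison with other windows may set unlike positions side by side. The median window held 1 CpG (quartiles 0 and 2) and 34% G and C, against 8 CpG (quartiles 3 and 20) and 53.7% in the other 7117 windows of the same chromosomes. The box CAGAC, searched on both strands, was present in 29.3% of the Olfr windows (exact binomial 95% interval 25.1 to 33.8%), in 51.5% of the other windows of these chromosomes (50.3 to 52.7%) and in 49.6% of all 32851 windows. GGCGCC, a palindrome, was present in 0 of 437 Olfr windows, which allows a share of up to 0.686%, and in 11.9% of all windows. The palindrome GTCTAGAC, which also contains no CAGAC, was in 1 Olfr window and in 0.213% of all windows. Each of these is a count of letters in a window and not a binding site.

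To show what such windows look like, 3 are printed for the middle gene of each run with a promoter window. A further 1 is for the Olfr gene that holds the palindrome, and 1 for Taf10 as a gene of other function from inside the chromosome 7 run. All are 5′ to 3′ on the gene's strand. Capitals mark CAGAC or its reverse complement GTCTG, GTCTAGAC and GGCGCC. The positions are GRCm38.p6 and cannot be set beside the mm9 positions of the peaks.
Olfr1152, chr2:87867743-87868042, plus strand: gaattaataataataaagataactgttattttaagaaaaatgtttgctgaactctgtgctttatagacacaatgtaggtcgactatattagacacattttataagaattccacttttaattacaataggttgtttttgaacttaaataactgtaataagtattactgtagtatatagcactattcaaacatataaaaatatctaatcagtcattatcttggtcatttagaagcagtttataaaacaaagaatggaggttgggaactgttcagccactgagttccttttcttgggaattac
Olfr656, chr7:104617407-104617706, plus strand: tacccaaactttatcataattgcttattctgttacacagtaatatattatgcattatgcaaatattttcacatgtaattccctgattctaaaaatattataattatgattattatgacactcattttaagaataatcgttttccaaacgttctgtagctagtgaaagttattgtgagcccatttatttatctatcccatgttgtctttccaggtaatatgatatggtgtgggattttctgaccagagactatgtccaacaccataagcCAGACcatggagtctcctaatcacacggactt
Olfr930, chr9:38929923-38930222, plus strand: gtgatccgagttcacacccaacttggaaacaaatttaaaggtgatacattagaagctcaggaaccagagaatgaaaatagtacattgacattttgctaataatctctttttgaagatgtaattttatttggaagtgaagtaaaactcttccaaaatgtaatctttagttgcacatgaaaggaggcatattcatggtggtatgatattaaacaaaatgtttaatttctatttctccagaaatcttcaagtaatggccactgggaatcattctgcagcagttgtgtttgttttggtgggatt
Olfr1253, chr2:89752777-89753076, minus strand: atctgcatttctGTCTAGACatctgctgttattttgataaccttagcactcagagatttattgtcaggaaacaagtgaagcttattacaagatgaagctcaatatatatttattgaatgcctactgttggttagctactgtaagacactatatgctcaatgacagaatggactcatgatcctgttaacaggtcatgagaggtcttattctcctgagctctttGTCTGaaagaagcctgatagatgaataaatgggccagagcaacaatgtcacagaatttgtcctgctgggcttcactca
Taf10, chr7:105744289-105744588, minus strand: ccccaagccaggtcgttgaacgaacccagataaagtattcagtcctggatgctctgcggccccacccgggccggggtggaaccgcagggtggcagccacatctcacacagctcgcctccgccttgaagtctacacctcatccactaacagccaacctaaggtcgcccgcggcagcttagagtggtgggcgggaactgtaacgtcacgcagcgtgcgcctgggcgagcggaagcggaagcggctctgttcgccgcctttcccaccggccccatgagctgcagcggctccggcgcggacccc

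Olfr1152 and Olfr930 hold none of the searched boxes and 1 CpG each. Olfr656 holds 1 CAGAC, which lies after its ATG, and 3 CpG. Olfr1253 holds the palindrome and 1 further box in its reverse form GTCTG. The Taf10 window holds 27 CpG and none of the boxes. Its ATG comes later after the gene start than in the Olfr windows. Among the windows printed, CpG number separates the receptor windows from the single Taf10 window, while the presence of a Smad box does not. In the full sets CAGAC and GGCGCC were both present in a smaller share of Olfr windows than of the other windows.

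The first comparison asked whether the arrays held fewer peaks than the rest of their chromosomes. They held more. The arrays had 43.2 peaks per Mb (exact Poisson 95% interval 39.8 to 46.8), against 34.1 per Mb (33.6 to 34.7) in the rest of the same chromosomes. Relative to the number expected from each chromosome's own density, 469.6 peaks, the 592 observed were 1.26 times as many (exact binomial 95% interval 1.16 to 1.37). Intervals here and below cover counting error only. The peaks are loci of 1 library and the tags carry no molecular identifiers, so neither counts as a replicate, and no difference was given a p-value.

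All 3 arrays lay above their chromosome. The chromosome 2 array had 40.0 peaks per Mb against 33.5 in its rest, a ratio of 1.2 (1.03 to 1.38). The chromosome 7 array had 46.3 against 35.1, a ratio of 1.32 (1.17 to 1.49). The rest of chromosome 7 includes a stretch of 7105929 bp without a peak, which lowers its density and raises both this ratio and the pooled one. The chromosome 9 array had 42.0 against 33.9, a ratio of 1.24 (1.01 to 1.5). The intervals of the 3 ratios overlap, so the arrays were not distinguishable from each other in density.

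Along each array the numbers varied widely. In windows of 0.5 Mb the chromosome 2 array held 12 to 28 peaks with a median of 20, while 346 windows in the rest of chromosome 2 had a median of 17 (quartiles 12 and 20, range 3 to 38). The chromosome 7 array held 17 to 45 with a median of 21, beside a median of 16 (quartiles 12 and 21, range 0 to 74) in 284 other windows. The chromosome 9 array held 15 to 25 with a median of 22, beside a median of 16 (quartiles 13 and 20, range 6 to 38) in 236 other windows. Every array window therefore lay within the range of its own chromosome. Above the chromosome's median lay 6 of 10 windows on chromosome 2, 12 of 12 on chromosome 7 and 4 of 5 on chromosome 9.

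**Figure D1:**
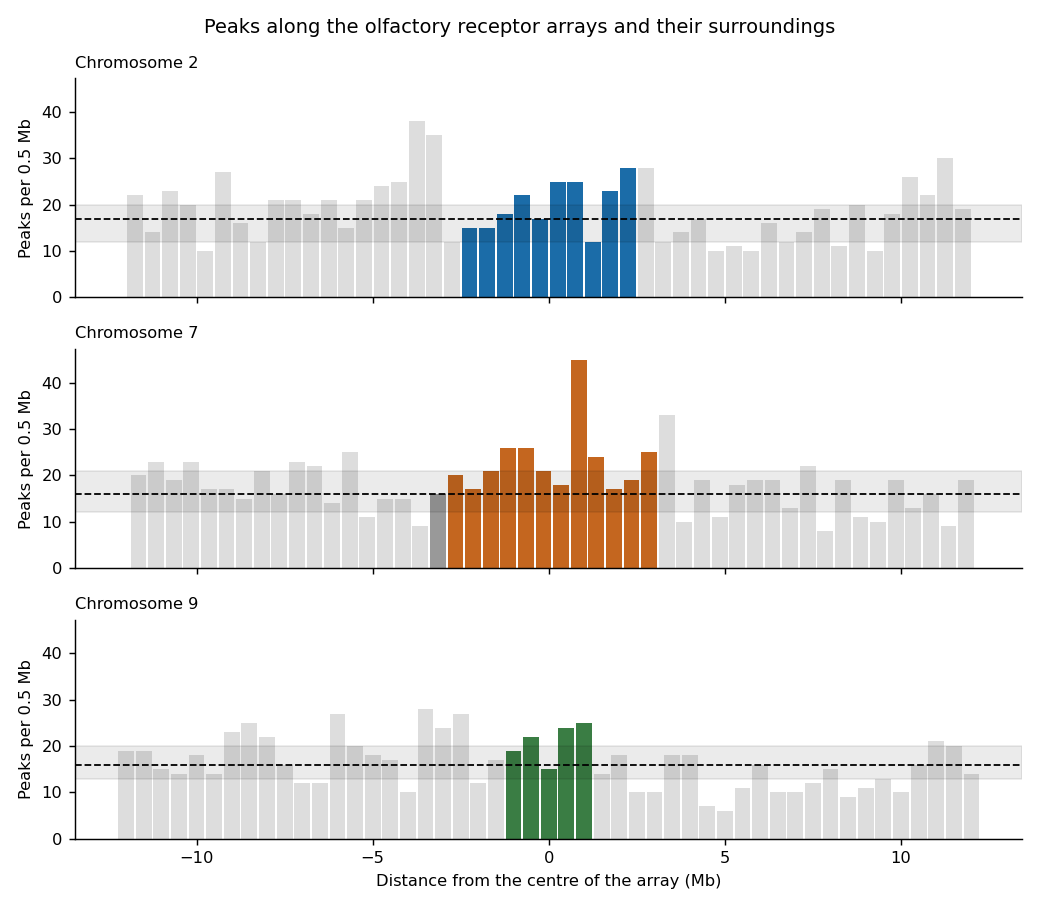
Peaks per 0.5 Mb window (y axis) by distance from the centre of each array in Mb (x axis), for 12 Mb on either side. Coloured bars are windows inside the array, light grey bars the rest of the chromosome, the dark grey bar a window only partly inside, and the dashed line and band give the median and quartiles of all windows of the chromosome's rest. Array windows mostly stand above the dashed line, and the tallest, with 45 peaks, is on chromosome 7.

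The window with the most peaks in any array was chromosome 7 from 113000001 to 113500000, singled out after its value was seen. Its 45 peaks had a median deposited fold enrichment of 1.22, the lowest of the windows in the arrays, with a range of 0.82 to 1.94. None of the 45 reached 2-fold, which allows a share of up to 6.67%, against 14.3% in the whole list. A fold below 1 was given to 6, 13.3% (5.05 to 26.8%), against 4.41% in the whole list. Windows outside the arrays also held none of at least 2-fold, such as chromosome 7 from 50000001 to 50500000 with 33 peaks. The 45 peaks of the array window held 15 to 55 tags, with a median of 17. Without this window the chromosome 7 array had 42.5 peaks per Mb, and the 3 arrays together had 1.21 times the expected number (1.11 to 1.32).

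The surroundings were uneven too. The 2.5 Mb before the chromosome 2 array had 53.6 peaks per Mb (exact Poisson 95% interval 44.9 to 63.5), above the 40.0 (34.6 to 45.9) of the array itself although the intervals touch, and the 2.5 Mb after it 32.4 (25.7 to 40.3). On chromosome 7 the flanks had 26.8 (20.8 to 34.0) before and 36.4 (29.3 to 44.7) after the array. On chromosome 9 they had 43.2 (35.4 to 52.2) before and 28.0 (21.8 to 35.4) after. The array on chromosome 7, at 46.3 (41.1 to 52.0), was thus denser than both of its flanks, with an interval that overlaps that of the flank after it, while those on chromosomes 2 and 9 were not denser than the flank before them.

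The next comparison was of peak size. By median, peaks in the arrays were as large as elsewhere. The list starts at 15 tags, close to the median, so the median number of tags could hardly differ between sets. The median array peak held 16 tags (quartiles 15 and 19, order-statistic 95% interval 16 to 16), the same median and quartiles as in the rest. The median length was 585 bp in the arrays (582 to 590) and 585 bp in the rest (584 to 585). The lowest number of tags in the list, 15, was held by 34.1% of array peaks (30.3 to 38.1%) and by 35.0% of the others (34.3 to 35.8%).

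Tags per kb of peak were slightly lower in the arrays, at a median of 28.3 (28.0 to 28.6) against 28.8 (28.7 to 28.9). All 3 arrays were lower than their rest, with medians of 28.3, 28.3 and 28.5 on chromosomes 2, 7 and 9 beside 28.8, 28.7 and 28.9, but taken singly each array's interval overlaps that of its rest. The pooled difference amounts to -0.44 tags per kb, which is small beside the quartiles of the array peaks, 26.7 and 30.9. Its interval reaches 0 when 0.5 Mb is cut from both ends of each array or when peaks less than 1 kb apart are merged.

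In the 3 arrays together large peaks were not detectably fewer. Over 30 tags were held by 20 array peaks where 23.7 were expected, a ratio of 0.843 (0.512 to 1.31). On chromosome 2, 10 were observed where 7.08 were expected. Chromosomes 7 and 9 went the other way, with 8 where 13.1 and 2 where 3.56 were expected. Each of these ratios had an interval that includes 1. As a share of its peaks, the chromosome 7 array had 2.79% over 30 tags (1.21 to 5.42%), against 6.01% in its rest (5.37 to 6.71%). A length over 1000 bp was reached by 3.21% of array peaks (1.94 to 4.97%) and 3.64% of the others (3.35 to 3.95%). The most tags in any array peak were 61 and the longest had 2025 bp. No array peak had over 100 tags, but only 0.941 were expected, so a shortage was not detectable with this number of peaks.

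**Figure D2:**
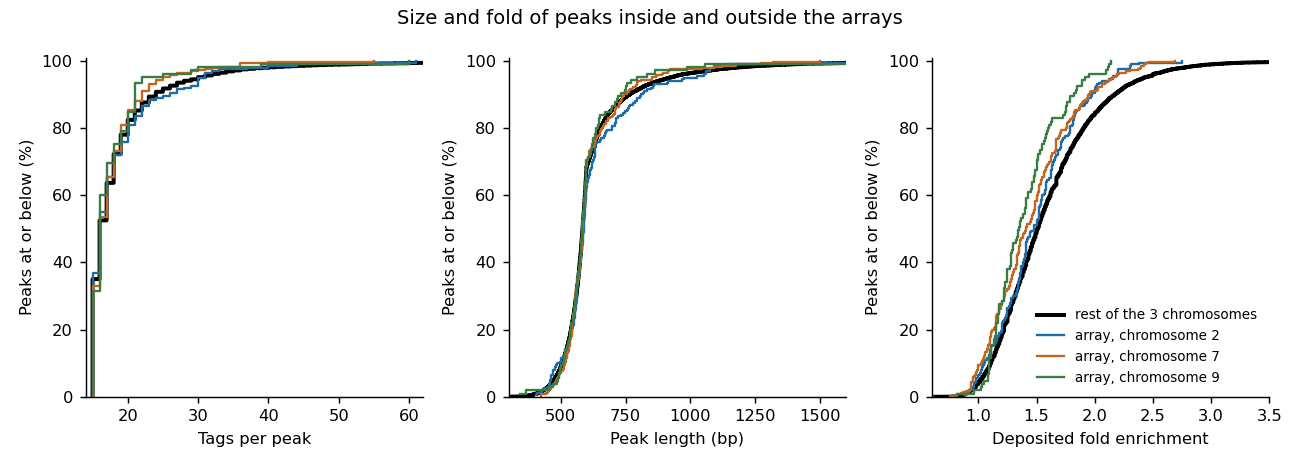
Cumulative share of peaks (y axis, percent of peaks at or below a value) by tags per peak, peak length in bp and deposited fold enrichment. The coloured lines are the 3 arrays and the black line the rest of their chromosomes. Lines run close together for tags and length, with medians of 16 tags throughout, and in the fold panel the arrays on chromosomes 7 and 9 lie to the left of the black line, with medians of 1.41 and 1.35.

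The arrays differed from the rest of their chromosomes in the fold enrichment deposited with each peak. This is the authors' value per peak, and neither its background nor its calculation is stated, so it is used only to compare peaks within the list. The median fold was 1.41 in the arrays (1.38 to 1.46) and 1.51 in the rest (1.5 to 1.52). In the arrays 49 of 592 peaks reached 2-fold, 8.28% (exact binomial 95% interval 6.19 to 10.8%), against 16% in the rest (15.4 to 16.6%) and 14.3% in the whole list. At least 1.5-fold was reached by 42.6% (38.5 to 46.7%), against 51.3% (50.5 to 52.1%) in the rest and 49.1% in the whole list. Among the neighbouring 2.5 Mb flanks some were as low as the array beside them. The flank before the chromosome 2 array had a median fold of 1.46 and the one after the chromosome 7 array 1.39, where 11.0% of peaks reached 2-fold (5.40 to 19.3%). The other 4 flanks had medians of 1.47 to 1.67.

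At the upper end the arrays held nothing of at least 3-fold. Such peaks made up 0 of 592 in the arrays, which allows a share of up to 0.507%, and 156 of 14860 in the rest, 1.05% (0.892 to 1.23%). In the whole list they made up 0.835%. From the densities of the rest 5.04 would have been expected. The nearest peak of at least 3-fold lay 0.157 Mb before the chromosome 2 array, a peak of 20 tags and 3.04-fold at 84843150 to 84843635, and 1.93 Mb after it. On chromosome 7 the distances were 1.67 Mb before and 3.98 Mb after, and on chromosome 9 they were 0.258 Mb before and 2.76 Mb after.

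The arrays were then taken singly. On chromosome 9 the median fold was 1.35, against 1.51 in its rest, and 4 of 105 peaks reached 2-fold, 3.81% (1.05 to 9.47%), against 14.9% (13.9 to 16.1%). On chromosome 7 the median was 1.41 against 1.53, and 9.06% reached 2-fold (6.00 to 13.0%) against 18.2% (17.1 to 19.3%). On chromosome 2 the median fold was 1.48 against 1.49, and 9.50% reached 2-fold (5.82 to 14.4%) against 14.9% (14 to 15.8%). The share on chromosome 2 has an interval that overlaps that of its rest but ends just below its value of 14.9%. In this array the lower share was therefore borderline against counting error, and the difference was not tested. The intervals of the 3 arrays overlap each other, so the arrays were not distinguishable in this share either, and a difference between them was not tested.

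A fold below 1 was given to 6.08% of array peaks (4.30 to 8.32%), to 3.78% in the rest (3.47 to 4.09%) and to 4.41% in the whole list. This came mainly from chromosome 7, where 23 of 287 peaks, 8.01% (5.15 to 11.8%), were below 1, against 3.82% in its rest. On chromosome 2 it was 11 of 200, 5.5% (2.78 to 9.63%), against 4.14%. Chromosome 9 went the other way, with 2 of 105, 1.90% (0.232 to 6.71%), against 3.18%. The intervals on chromosomes 2 and 9 include the share of their rest. For the 3 arrays together, the other scores of the caller moved in the same direction. The p score (the caller's p-value as negative log10, multiplied by 10) had a median of 98.9 in the arrays (95 to 102) and 110 in the rest (109 to 111). An FDR of at most 1% was given to 70.4% of array peaks (66.6 to 74.1%), to 78.7% in the rest (78.0 to 79.3%) and to 77.6% in the whole list.

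Splitting the density by fold showed where the additional peaks lay. Peaks under 1.2-fold, 146 in the arrays, came to 1.76 times the expected number (1.48 to 2.08). Those from 1.2 to under 1.5 came to 1.35 times (1.16 to 1.55), and those from 1.5 to under 2 to 1.23 times (1.06 to 1.41). Peaks of at least 2-fold fell short of the expected 77.1, with 49 observed, a ratio of 0.635 (0.469 to 0.843). The arrays thus had 24.8 peaks under 1.5-fold per Mb against 16.6 in the rest, and 3.58 of at least 2-fold against 5.47.

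On chromosome 9 these ratios ran from 2.02 (1.34 to 2.93) under 1.2-fold to 0.316 (0.0857 to 0.812) for at least 2-fold. On chromosome 7 they ran from 2.07 (1.62 to 2.62) to 0.658 (0.427 to 0.970). On chromosome 2 the ratio was 1.25 (0.886 to 1.73) under 1.2-fold, 1.36 (1.08 to 1.71) from 1.5 to under 2 and 0.762 (0.457 to 1.2) for at least 2-fold, so there the intervals at both ends include 1.

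**Figure D3:**
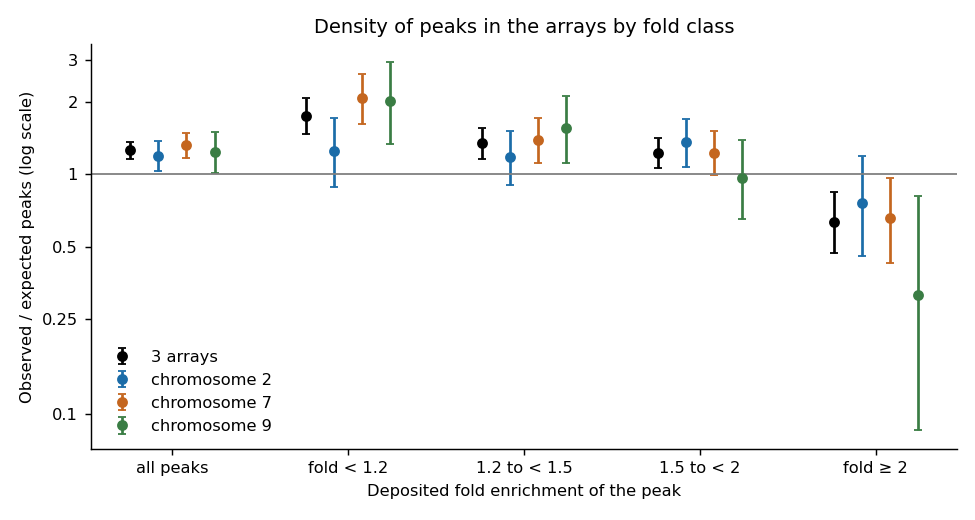
Ratio of observed to expected peaks (y axis, log scale) for all peaks and for 4 classes of deposited fold (x axis). Black points are the 3 arrays together, coloured points each array, bars exact binomial 95% intervals, and the grey line marks a ratio of 1. The ratio for the 3 arrays falls from 1.76 for peaks under 1.2-fold to 0.635 for peaks of at least 2-fold.

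The lower fold was also seen among peaks with like numbers of tags. At exactly 15 tags the median fold was 1.34 in 202 array peaks (1.27 to 1.39) and 1.41 in the rest (1.41 to 1.43), and 3.47% against 8.43% reached 2-fold. At 16 to 20 tags 9.18% (6.14 to 13.1%) of 294 array peaks reached 2-fold, against 16.9% (16 to 17.8%). At 21 to 30 tags it was 17.1% (9.43 to 27.5%) of 76, against 31.1% (29.0 to 33.2%). Above 30 tags only 20 array peaks were left, 10% of which reached 2-fold (1.23 to 31.7%), against 22.7% (19.7 to 26.0%), a difference within counting error.

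The leading array peaks by fold had many peaks above them elsewhere on their chromosome, which holds many times more peaks, so ranks are not shares. The highest fold, 2.75, was on chromosome 2 at 85318486 to 85319200 in a peak of 29 tags (exact Poisson 95% interval 19.4 to 41.6), and 106 peaks in the rest of chromosome 2 had a higher fold. The highest p score, 430, was on chromosome 7 at 112916857 to 112917901, where 36 tags (25.2 to 49.8) gave a fold of 2.69, and 144 peaks in the rest of that chromosome were higher in fold. This peak led its array in both p score and fold. On chromosome 9 the highest fold was 2.14, at 38122291 to 38122985 with 20 tags (12.2 to 30.9), below 400 peaks in the rest of the chromosome. By tags, the leading peaks of the arrays on chromosomes 2, 7 and 9 had 26, 56 and 22 peaks with more tags in the rest of their chromosome.

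The peaks with the most tags were not those with the highest folds on chromosomes 2 and 9, although the leading peak of each array lay above its array's median fold. On chromosome 2 the peak at 86182087 to 86183907 held 61 tags (46.7 to 78.4) over 1821 bp with a fold of 1.67, and the peak at 89518372 to 89519731 held 48 tags (35.4 to 63.6) at 1.00-fold. On chromosome 9 the peak at 37764666 to 37766690 held 60 tags (45.8 to 77.2) over 2025 bp with a fold of 1.43. Its neighbour at 37767596 to 37768580, less than 1 kb away, held 30 tags with a fold of 1.17. On chromosome 7 the peak at 113294450 to 113295946, inside the window of 45 peaks, held 55 tags (41.4 to 71.6) over 1497 bp with a fold of 1.82.

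The other peaks named by the same ranking were alike. On chromosome 2 the peaks at 89971368 to 89972201 and at 87317806 to 87318225 had folds of 2.38 and 2.31 with 27 and 16 tags, and the one at 85537253 to 85538112 a fold of 2.30 with 31 tags. Those at 88833329 to 88834405 and at 88015488 to 88016576 had the highest p scores there, 290 and 289, with folds of 1.63 and 1.55, and the one at 88205113 to 88206170 held 44 tags. On chromosome 7 the peaks at 110698716 to 110699415, 112225517 to 112226157 and 112421396 to 112422121 had folds of 2.46, 2.44 and 2.06 with 21, 20 and 24 tags, while the one at 114199835 to 114201106 held 40 tags at 1.33-fold. On chromosome 9 folds of 2.12 and 2.11 were given at 39233879 to 39234626 and 38705444 to 38706091. A further 3 peaks there, at 37731754 to 37732523, 37813206 to 37813850 and 39794193 to 39795248, had folds of 1.76, 1.82 and 1.36 with 25, 22 and 39 tags. Counting intervals of peaks with 15 to 30 tags overlap widely, so their order is not resolved.

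At the bounds of the arrays the peaks just inside and just outside held 15 to 23 tags. On chromosome 2 the first peak inside held 18 tags with a fold of 1.57, and the last before it 16 tags with a fold of 2.36. The last inside held 23 tags with a fold of 2.2. The upper bound was straddled by a peak of 15 tags and 1.44-fold at 89999738 to 90000267, and its midpoint fell just outside. On chromosome 7 the first inside and the last before each held 15 tags, with folds of 1.3 and 1.58, and the last inside and the first after also held 15 tags each, with folds of 1.62 and 1.15. On chromosome 9 the first inside held 15 tags with a fold of 1.49 and the last before 21 tags with a fold of 1.84, and the last inside and first after held 17 and 19 tags with folds of 2.10 and 1.84.

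Finally each array was set among tiles of its own length laid outward from it over its whole chromosome, a comparison chosen after the values were seen. On chromosome 2, 3 of 34 other tiles of 5 Mb were denser than the array, and the densest, at 46.0 peaks per Mb, was the neighbour before it. On chromosome 7, 3 of 22 other tiles of 6.2 Mb were denser, up to 67.6 per Mb, and on chromosome 9, 5 of 46 other tiles of 2.5 Mb, up to 51.6 per Mb. Ranked by how many of their peaks reached 2-fold, in percent, the arrays on chromosomes 7 and 9 were the lowest tiles of their chromosome, although by little. The next lowest tile had 9.52% beside 9.06% on chromosome 7, and 3.88% beside 3.81% on chromosome 9. On chromosome 2, 8 of 34 other tiles were lower than the array.

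Many peaks with few of high fold was not a pattern of the arrays alone. Over the other tiles of chromosome 2 the number of peaks per Mb and the share of at least 2-fold had a Pearson r of -0.81 and a Spearman rho of -0.74 (34 tiles), and on chromosome 9 of -0.62 and -0.69 (46 tiles). On chromosome 7 they were -0.01 and -0.12 (22 tiles). These 22 include the tile from 41100001 to 47300000, with 3.23 peaks per Mb and a share of 10%, which lies largely in the long stretch without peaks. Its part in the 2 coefficients was not tested. These are descriptions of tiles that share 1 library and its unknown depth, and the share has the number of peaks as its denominator. On chromosome 2 the 3 denser tiles had shares of 8.70 to 10.2%, around the 9.50% of the array. On chromosome 9 the 5 denser tiles had 5.08 to 13.6%, all above the 3.81% of the array, and on chromosome 7 the 3 denser tiles had 10.7 to 27.9%, all above its 9.06%. By median fold, none of the denser tiles on chromosomes 7 and 9 was lower than the array, while on chromosome 2 all 3 were, at 1.39 to 1.44 against 1.48, as were 18 of the 34 other tiles there. The numbers of tiles without any peak of at least 3-fold were 10 of 34, 6 of 22 and 19 of 46 on chromosomes 2, 7 and 9, so the lack of such peaks in a single array was common on its chromosome.

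**Figure D4:**
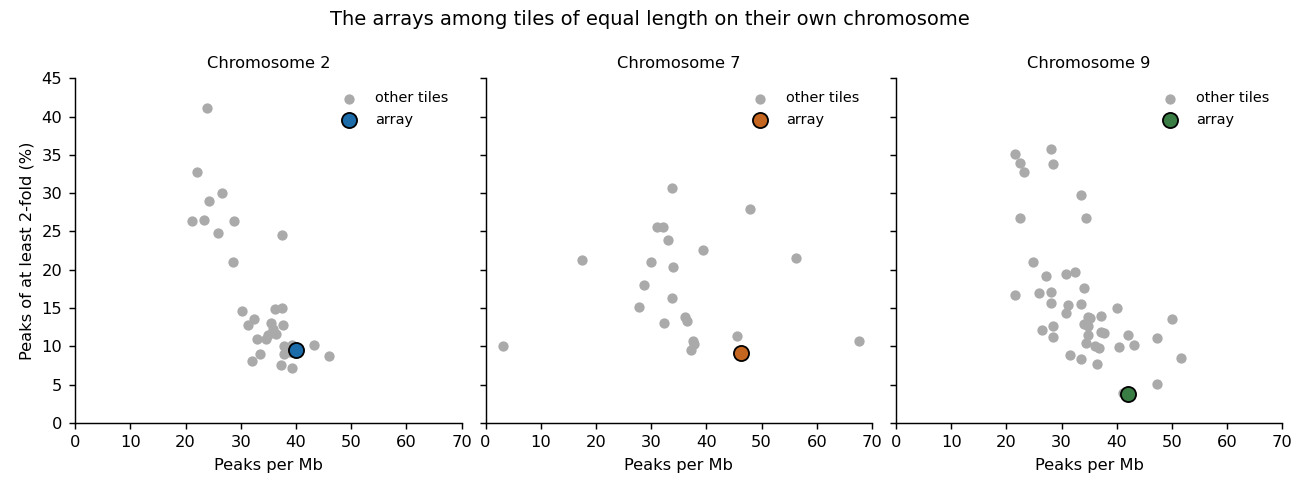
Percent of peaks that reached 2-fold (y axis) against peaks per Mb (x axis) in tiles as long as the array of each chromosome (5, 6.2 and 2.5 Mb). Grey points are the other tiles and the large coloured point the array. The array on chromosome 2 lies among tiles of like density at 9.50%, and those on chromosomes 7 and 9 lie at the lower edge at 9.06% and 3.81%.

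The repeated sequence of gene arrays can change how many tags are placed there, and how tags that match several places were treated is not stated in the labels or the list. The part of this, and of gene density or base composition, in the values above was not tested.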

How the data were processed

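Smad4 ChIP and input DNA of mouse forelimb were sequenced, 1 library each. Per the submitters' processing notes the tools included an aligner, BWA, and the peak callers MACS and SICER, on mm9, and neither versions nor settings are given. The data are 1 deposited list of peaks, laid out like a table of MACS per its header. Tag counts per peak, the p score, the fold enrichment (a ratio) and the FDR in percent were deposited by the authors and used unchanged. Only called peaks are listed, and the title of the list mentions transcription start sites, so whether peaks were selected on these is not known. Positions are mm9 and were read as counted from 1. Both ends are included, which the deposited lengths of all 90984 peaks bear out.

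Computed here were peaks per Mb, tags per kb, medians with order-statistic 95% intervals, shares with exact (Clopper-Pearson) intervals, and observed over expected numbers with exact binomial intervals. Chromosome spans ran from the first to the last peak. A count of 0 was read as allowing up to 3. No p-value was computed, because each group has 1 library. The members, classes and tests were chosen with earlier results of these data known. Peaks named are, per array, the 3 highest in p score, in fold and in tags, the longest and any of at least 3-fold. Sequences are RefSeq's, GRCm38.p6. The procedure was run on 200 simulated sets, in which peaks were placed uniformly at random along these chromosomes. In them 95% of intervals for a density ratio of 1.5 and 92% of those for a shift in median fold held the true value. The real peaks are spread unevenly, so these sets cannot show how the intervals behave with clustered peaks. The tools were scipy 1.17.1 for intervals, pandas 2.3.3 and numpy 2.4.6 for tables, and matplotlib 3.10.9 for plots, in Python 3.11.15. Alternatives for the position rule, bounds, FDR, tags, merging, reference and arrays entered are given in the closing section.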

Additional observations from a re-analysis of the deposited data

How the results depend on the processing

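Of 84 values recomputed under alternatives, 79 stayed within the counting interval of the reported value, or within 1.5 times for the number of peaks, and none of the differences that excluded 0, or of the density ratios, turned in direction. With FDR at most 1% the density ratio fell from 1.26 to 1.13 (1.02 to 1.24). With more than 15 tags the number of array peaks was 390 and the difference in median tags per kb was -0.829. Without the chromosome 2 array the difference in median fold was -0.135, against -0.10 with it. At a limit of 3-fold the difference in share was -1.05 percentage points, against -7.74 at 2-fold, since few peaks are that high. The causes of the other changes were not tested. Over all alternatives the density ratio ran from 1.13 to 1.3 and the difference in median fold from -0.135 to -0.07. Leaving out the densest window on chromosome 7 was added after seeing the data. No paired analysis was possible because a single ChIP library and a single input library exist in the labels. Depth is unknown, and 15 to 61 tags per peak limit single values.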

Other observations

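The spacing of peaks was compared after the values were seen. It is not independent of the higher density of the arrays. The median stretch between neighbouring peaks was 14681 bp in the arrays (order-statistic 95% interval 12881 to 17110) and 17279 bp in the rest (16812 to 17792), so these intervals overlap slightly. Stretches of over 100 kb without a peak made up 9 of 589 in the arrays, 1.53% (exact binomial 95% interval 0.701 to 2.88%), and 4.07% in the rest (3.76 to 4.40%). Singly, the array on chromosome 7 was lower than its rest, at 0.699% (0.0848 to 2.5%) against 3.90% (3.39 to 4.48%), while on chromosomes 2 and 9 the shares of 2.51% (0.821 to 5.77%) and 1.92% (0.234 to 6.77%) had intervals that overlap those of their rest. The longest in the arrays was 159 kb, on chromosome 2 from 85930865 to 86090267, and it was followed in length by 124 kb from 85806397 to 85930304, so 1 peak alone stood between them. The longest stretch was 112 kb on chromosome 7, from 109567679 to 109679729, and 114 kb on chromosome 9, from 39470970 to 39585287. Neighbours less than 1 kb apart made up 9.51% in the arrays (exact binomial 95% interval 7.26 to 12.2%), against 8.24% in the rest (7.80 to 8.69%), and 9.05% on chromosome 2 (5.45 to 13.9%), against 7.52%, both within counting error. They made up 14.4% on chromosome 9 (exact binomial 95% interval 8.30 to 22.7%), against 7.31% in its rest (6.53 to 8.16%), while on chromosome 7 they made up 8.04% (5.17 to 11.8%), against 9.82% (9.01 to 10.7%). In all, peaks covered 26.8 kb per Mb of the arrays and 21.3 kb per Mb of the rest, with a mean of 18.1 and 19.4 tags per peak.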
